A study of Rattus norvegicus with 6 samples.

Results

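The 3 main chains of collagen VI (Col6a1, Col6a2 and Col6a3) and 3 collagens that associate with the surface of fibrils (Col12a1, Col14a1 and Col16a1) were followed in the Achilles tendon of the newborn rat. They were chosen by name, with earlier results of these data known. All 6 had a probe set that the platform annotation assigned to them alone, and they are 6 of 14217 genes so represented. The study compared newborn rats on day 1 after birth with rats on day 7, with 3 Affymetrix expression arrays for each age. RNA of at least 2 animals was pooled for each array, and the spread behind each p-value is therefore that of pools, not of single animals. No strain, sex or genotype is given in the sources used here.

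Collagen VI is a heterotrimer that assembles into beaded microfilaments in the matrix close to cells, where it links the cell surface to the fibrils of collagen I. The fibril-associated collagens carry short triple helices broken by flexible stretches, lie along the outside of collagen I and II fibrils, and are known to regulate how fibrils pack and grow. Collagens XII and XIV are the family's main representatives in tendon, and inherited defects of collagen VI or of COL12A1 cause disorders that combine muscle weakness with lax joints.

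Median probe set intensity lay between 20.5 and 21.1 on the 6 arrays, while negative controls for the bacterial gene trp read 3.74 to 4.76. The tendon markers Scx (603 to 897) and Tnmd (2279 to 6822) were well above that level on each array. Muscle markers were present too, with a summed intensity over 14 of 15 listed genes of 64356 to 79770 on day 1 and 39316 to 57955 on day 7 (rounded to whole units). Epidermal markers stood out on day 1 replicate 1, where 7 of 10 listed genes summed to 5773, against 168 to 426 on the other 5 arrays. In RNA of whole tissue, a larger number of cells of one type and more RNA per cell cannot be told apart.

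None of the 6 collagens passed the test between the ages, although the log2 change was above 0 in all 6 (limma, adjusted p under 0.05 as the threshold, adjusted over 31042 probe sets). The changes ran from 0.26 for Col12a1 to 0.77 for Col14a1 on the log2(intensity + 1) scale, day 7 minus day 1, and their median was 0.45. Over all 14217 genes the median change was -0.01, and 48.0% of genes had a change above 0. Of all genes, 5.08% passed, 1.93% as higher on day 7 and 3.15% as lower. That is 274 higher and 448 lower genes, a split that became 352 and 320 after quantile normalization, under which again none of the 6 passed. Without adjustment, 1 of the 6 (Col14a1) had a p under 0.05, in the direction of a rise, as did 10.6% of all genes.

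Collagen XIV had the largest change of the 6 on the brightest probe sets. Col14a1 (probe set 1376105_at) encodes a fibril-associated collagen that limits lateral fusion of fibrils in young tendon. It read 3332, 4692 and 2698 on day 1 replicates 1, 2 and 3, and 6753, 5613 and 5494 on the corresponding day 7 arrays. Every day 7 array lay above every day 1 array, which was so for 14.0% of all genes and for no other gene of the 6. The means were 3574 ± 1019 on day 1 and 5954 ± 695 on day 7 (SD, n = 3), a 1.70-fold difference (log2 change 0.77, SE 0.20, 95% interval 0.30 to 1.23; limma adjusted p = 0.0794). A second probe set of the gene, 1376170_at, read 1047, 1852 and 988 on day 1 and 2335, 2028 and 1785 on day 7, with a log2 change of 0.71 (limma adjusted p = 0.137). On this probe set the highest day 1 array, replicate 2, exceeded the lowest day 7 array.

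The call on Col14a1 depended on the fit and on 1 array. The change was 0.98 without day 1 replicate 2 (limma adjusted p = 0.0356), the day 1 array nearest to day 7. It also passed with array weights (0.0367), with an intensity trend and robust variances (0.0491) and without both arrays numbered 2 (0.0415). In the other 11 alternatives it did not, with adjusted p-values up to 0.228, among them the fit without day 1 replicate 1, the array with the epidermal markers (0.216).

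**Figure D1:**
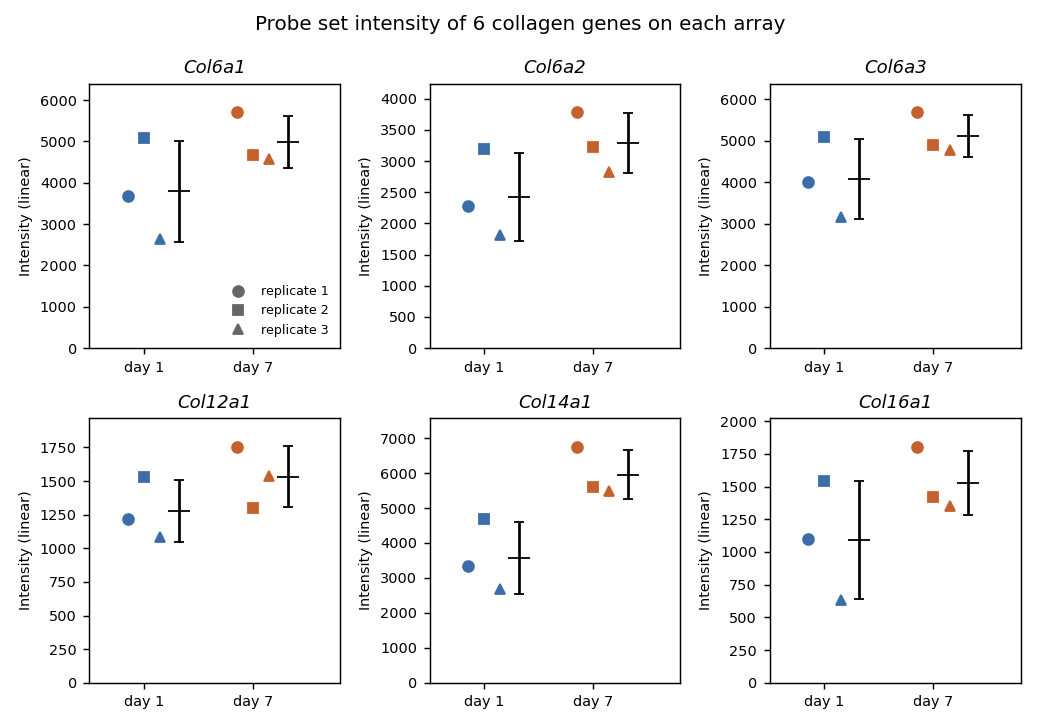
Intensity of the brightest probe set of each gene on each array (linear axes from 0, one per gene), with symbols for replicates 1 to 3 and bars for the mean and SD of the 3 arrays of an age. The day 7 arrays of Col14a1 lie between 5494 and 6753, all above the day 1 arrays, while in the other 5 genes day 1 replicate 2 reaches into the day 7 range.

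The collagen VI chains were higher on day 7 by the mean, with overlap in each case. Col6a1 (1371349_at), which encodes a chain needed in every collagen VI molecule, read 3672, 5071 and 2644 on day 1 and 5711, 4671 and 4576 on day 7. Day 1 replicate 2 thus lay above 2 of the 3 day 7 arrays. The means of 3796 ± 1218 and 4986 ± 629.8 (SD, n = 3) gave a log2 change of 0.44 (SE 0.23, 95% interval -0.09 to 0.96; limma adjusted p = 0.307).

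Col6a2 (1371369_at) encodes the other obligatory chain, and its gene lies near Col6a1 on the same rat chromosome. It read 2284, 3194 and 1806 on day 1 and 3787, 3233 and 2828 on day 7, with means of 2428 ± 705 and 3283 ± 481 (SD, n = 3). Only day 1 replicate 2 overlapped the day 7 arrays, lying above the lowest of them. The log2 change was 0.46 (SE 0.21, 95% interval -0.03 to 0.96; limma adjusted p = 0.250). A dimmer probe set of the gene, 1376162_at, showed a wider gap between the ages, from 54.1, 84.8 and 38.9 on day 1 to 147, 129 and 88.6 on day 7, without overlap. Its log2 change was 1.07 (SE 0.29; limma adjusted p = 0.0870), so the 2 probe sets of Col6a2 gave the same direction and different sizes.

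Col6a3 (1389966_at) encodes the longest of the main chains, which carries a long series of von Willebrand factor A domains at its amino end. It read 4009, 5086 and 3149.8 on day 1 and 5691, 4892 and 4769 on day 7, and again day 1 replicate 2 lay above 2 day 7 arrays. The means were 4082 ± 970.0 and 5117 ± 501 (SD, n = 3), which is a log2 change of 0.35 (SE 0.18, 95% interval -0.07 to 0.76; limma adjusted p = 0.303). Its dim second probe set, 1396055_at, read 12.3, 15.3 and 11.9 on day 1 and 28.3, 20.5 and 18.4 on day 7, with a log2 change of 0.71 (limma adjusted p = 0.0689). For both genes with a dim second probe set in the collagen VI group, the dim one did not overlap between the ages while the bright one did. Neither dim one passed, and 14.0% of all genes had every day 7 array above every day 1 array. The dim Col6a3 probe set read on both sides of the median intensity of the arrays. Col6a1 had no second probe set.

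A 2-fold rise, a log2 change of 1, lay outside the interval of the bright Col6a3 probe set (upper bound 0.76) and at the edge of those of Col6a1 and Col6a2 (both 0.96). The upper bounds of Col6a1 and Col6a2 were both 1.02 after quantile normalization, 1.03 and 1.01 with a pseudocount of 16, and 1.10 and 1.09 without day 1 replicate 2, so for these genes a 2-fold rise is not excluded. It lay inside the intervals of the dim Col6a2 probe set (0.39 to 1.74) and the dim Col6a3 probe set (0.30 to 1.11).

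The DNA just upstream of 2 of these genes is shown because the chains they encode assemble into one protein and their profiles over the arrays were close. RefSeq's promoter table (GRCr8 build) held 3 of the 6 genes, and the Col16a1 window lay inside the annotated gene, so it is not printed. The Col6a1 stretch is the first 250 bases of its window, all before the annotated gene, chr20:11905440-11905689 on the plus strand. The Col6a3 stretch is the 148 bases of its window that lie outside the annotated gene, chr9:98887061-98887208 on the minus strand. Capitals mark CCCTCC on either strand (GGAGGG), a motif chosen after the letters were seen, and overlapping matches are counted one by one.
Col6a1: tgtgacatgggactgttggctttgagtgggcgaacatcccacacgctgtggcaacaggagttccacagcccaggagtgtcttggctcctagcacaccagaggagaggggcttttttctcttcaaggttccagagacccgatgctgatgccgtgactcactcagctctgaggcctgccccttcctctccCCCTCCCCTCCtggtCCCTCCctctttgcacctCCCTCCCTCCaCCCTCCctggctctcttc
Col6a3: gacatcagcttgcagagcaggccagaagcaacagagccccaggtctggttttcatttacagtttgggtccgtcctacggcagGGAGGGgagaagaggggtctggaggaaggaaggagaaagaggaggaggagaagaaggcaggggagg
The Col6a1 stretch held 6 matches, clustered toward its end on the side of the gene, and the Col6a3 stretch held 1, on the opposite strand. Of 33465 rat promoter windows of 250 bases, 33.6% held the motif at least once. The full 250-base window of Col6a3, part of which lies inside the gene, held 2 matches. The letters TATAAA (in 12.9% of all windows), GGGCGG (30.5%), CCAAT (34.0%), CAGACA (17.2%) and CANNTG (65.5%, the E box pattern) were searched on both strands and were not found in either 250-base window. The matches describe these windows only.

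Col12a1 (1370927_at) encodes the fibril-associated collagen XII, a large protein with many fibronectin type III domains that is abundant in tendon. It had the smallest change of the 6. It read 1222, 1533 and 1084 on day 1 and 1756, 1302 and 1539 on day 7, and the ages overlapped, since day 1 replicate 2 lay above day 7 replicate 2. The means were 1279 ± 230.0 and 1532 ± 227 (SD, n = 3), which is a log2 change of 0.26 (SE 0.17, 95% interval -0.12 to 0.65; limma adjusted p = 0.394). A 2-fold change in either direction lay outside the interval of this probe set.

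Its 2 other probe sets were dimmer and also overlapped between the ages. The probe set 1398321_a_at read 143, 212 and 94.3 on day 1 and 274, 210.1 and 146 on day 7, with a log2 change of 0.52 (SE 0.32; limma adjusted p = 0.381). Its interval, -0.21 to 1.25, does not exclude a 2-fold rise. The probe set 1395580_at stayed between 9.72 and 15.2 on the 6 arrays, not far above the negative control, with a log2 change of 0.20 (limma adjusted p = 0.534).

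Col16a1 (1390846_at) encodes collagen XVI, a minor fibril-associated collagen with many short helical segments. It had the widest spread among day 1 arrays, which read 1095, 1543 and 635, against 1804, 1423 and 1352 on day 7. Day 1 replicate 2 lay above 2 of the day 7 arrays. The means were 1091 ± 454 and 1526 ± 243 (SD, n = 3), which is a log2 change of 0.56 (SE 0.30, 95% interval -0.12 to 1.25; limma adjusted p = 0.311). Col16a1 had no other probe set to check against.

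**Figure D2:**
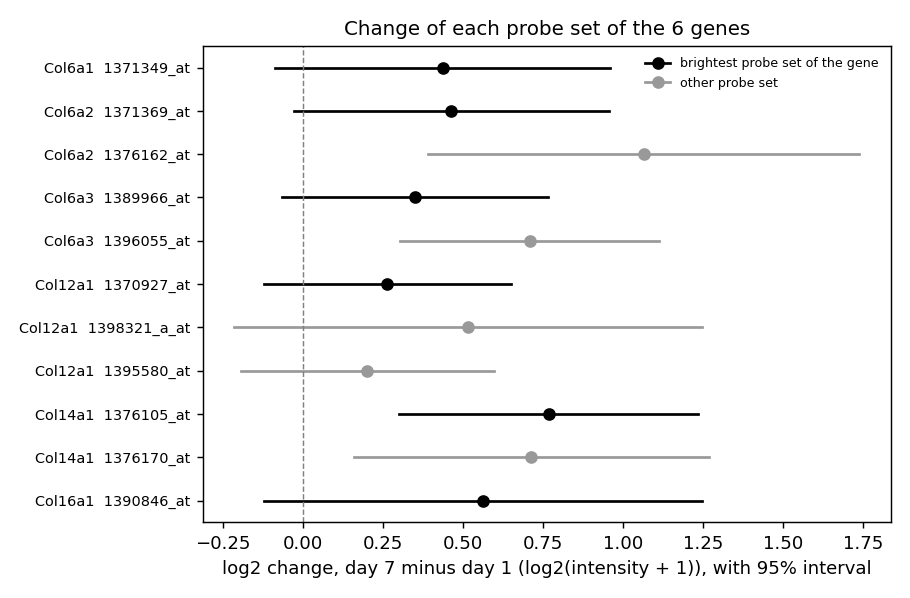
Log2 change from day 1 to day 7 (points) with 95% intervals (lines) for each of the 11 probe sets of the 6 genes, the brightest of each gene in black. All 11 points lie above 0, and the intervals of 4 probe sets, 2 of Col14a1 and the dim ones of Col6a2 and Col6a3, lie above 0 as a whole.

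For all 6 genes the ratio of the highest to the lowest day 1 array was larger than the fold difference between ages, though only narrowly for Col14a1. A range of single arrays and a difference of means are unlike measures. The highest day 1 array of Col16a1 was 2.43 times the lowest, against a 1.48-fold difference between ages. For Col6a1 the ratios were 1.92 and 1.35, for Col6a2 1.77 and 1.38, for Col6a3 1.61 and 1.27, and for Col12a1 1.41 and 1.20. Col14a1 had 1.74 within day 1 and 1.70 between ages. Within day 7 the same ratio was lower in all 6 genes, from 1.19 for Col6a3 to 1.35 for Col12a1. On the log2 scale the day 1 SD was 0.47 for Col6a1 and 0.65 for Col16a1, above their changes of 0.44 and 0.56. For Col6a2, Col6a3, Col12a1 and Col14a1 the day 1 SD was 0.41, 0.35, 0.25 and 0.40. The changes of these genes were 0.46, 0.35, 0.26 and 0.77.

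The spread was shared. In all 6 genes the day 1 arrays stood in the order replicate 3, replicate 1, replicate 2 from low to high, an order that 20.9% of all genes had. In all 6 genes day 7 replicate 1 was the highest of its age, as in 33.6% of all genes, and both patterns together were seen in 9.14% of all genes. Among 11 fibril-forming collagens 7 had both patterns, among 9 tendon markers 7, and among 14 muscle markers 0. This count was made after the values were seen. Relative to each gene's mean over the 6 arrays, the median of the 6 collagens on day 1 replicates 1, 2 and 3 was -0.20, 0.19 and -0.65 (log2), and on the day 7 replicates it was 0.43, 0.16 and 0.11.

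Markers of other tissues also differed over these arrays. Of 14 muscle markers 4 fell, of 9 cartilage markers 2 rose, and of 11 adipocyte markers 8 rose (limma), with median log2 changes of -0.80, 1.09 and 1.83. The adipocyte list summed to 1600.3 to 1806 on day 1 and 3060.5 to 6397 on day 7. Of 7 nerve markers 1 rose and 1 fell, and the list summed to 1893 to 2233 on day 1 and to 5816, 2263 and 8856 on day 7 replicates 1, 2 and 3. On day 1 replicates 1, 2 and 3 the median of the muscle markers stood at 0.46, 0.20 and 0.62 and that of 9 cartilage markers at -0.61, -0.14 and -0.83, on the same scale. Thus the day 1 array with the most muscle signal, replicate 3, had the lowest level of each of the 6 collagens, and the one with the least, replicate 2, the highest. On day 7 the muscle median stood at -0.45, -0.01 and -0.76 and the cartilage median at 1.01, 0.54 and 0.23, and there the array with the least muscle signal, replicate 3, was not the highest in any of the 6. Within each age the cartilage median ranked the 3 arrays as the median of the 6 collagens did. This order was not particular to cartilage. The tendon markers had it too, with medians of -0.16, 0.06 and -0.69 on day 1 and 0.50, 0.20 and 0.15 on day 7. So had the lists of binding partners and of collagen folding and cross-linking described below. The summed intensity of the cartilage list was 1082 to 2920 on day 1 and 2980 to 5539 on day 7. The part of these tissues in the collagen values was not tested.

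**Figure D3:**
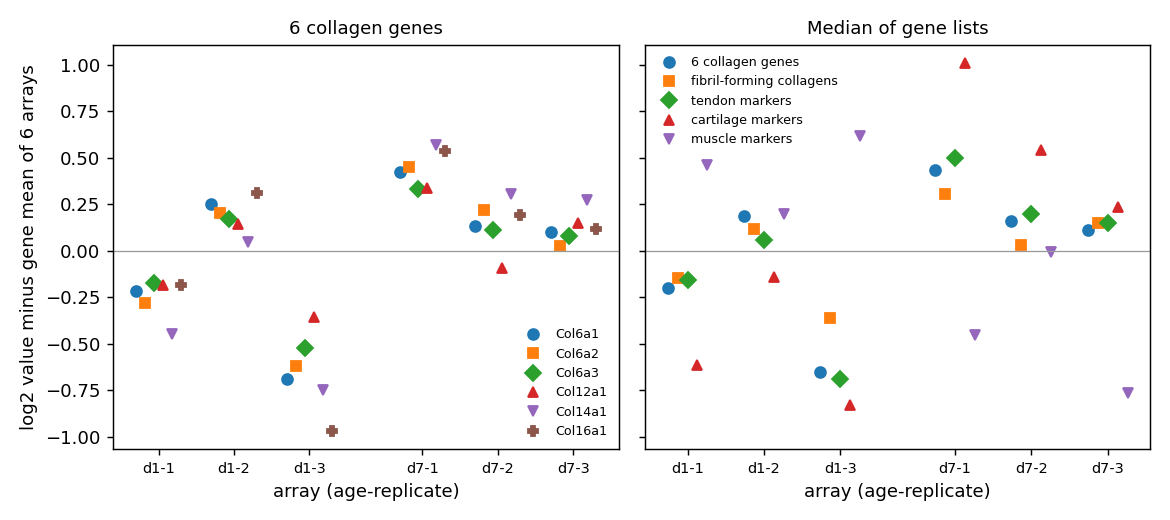
Left, log2 value of each of the 6 collagens minus its mean over the 6 arrays; right, the same as the median of each gene list. Day 1 replicate 3 is the lowest array for all 6 collagens and the highest for the muscle markers, and day 7 replicate 1 is the highest for all 6 collagens.

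Day 1 replicate 2 was the only array behind the overlap between the ages in the 5 genes that overlapped. Without it, the log2 changes ran from 0.40 for Col12a1 to 0.98 for Col14a1. Only Col14a1 passed in that fit, and Col6a2 (0.68; limma adjusted p = 0.0792) and Col6a1 (0.67; 0.0924) came next. Without day 1 replicate 3, the lowest array, the changes shrank to between 0.15 for Col12a1 and 0.58 for Col14a1. Without day 1 replicate 1, with its epidermal signal, they were 0.44, 0.44 and 0.35 for Col6a1, Col6a2 and Col6a3, 0.24 for Col12a1, 0.74 for Col14a1 and 0.61 for Col16a1, and none passed.

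The difference between each pair of the 6 genes was followed from array to array, which shows unequal change and cancels what both genes share on an array. In 4 of the 15 pairs the day 7 arrays lay wholly to one side of the day 1 arrays, and all 4 involved Col14a1. Its log2 change exceeded that of Col12a1 by 0.50, of Col6a3 by 0.42, of Col6a1 by 0.33 and of Col6a2 by 0.30, in each case with an exact two-sided permutation p of 0.10, the smallest that 3 arrays against 3 can give. Adjusted over the 15 pairs this is 0.375. With 3 arrays per age no pair could reach 0.05, so whether Col14a1 differs from the others is not settled by this test. Against Col16a1 the excess of Col14a1 was 0.20, with overlap (exact permutation p = 0.40). Among the 3 collagen VI chains the changes differed by 0.03 between Col6a1 and Col6a2, by 0.09 between Col6a1 and Col6a3 and by 0.12 between Col6a2 and Col6a3, all with overlap between the ages (exact permutation p of 0.80, 0.30 and 0.20).

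Likeness of profile was measured as the root mean square difference of centred log2 values over the 6 arrays, against 7107 other genes above the median level. A smaller value means a closer profile. For Col6a1 the nearest were Plod1, a lysyl hydroxylase (0.06), Col6a2 itself (0.07) and Mfap4, a microfibril-associated protein (0.07), while the median gene was at 0.43. For Col6a2 they were the protease cathepsin K, Ctsk (0.05), the peptidase Dpp7 (0.06) and Plod1 (0.06), with Col6a1 in rank 4. For Col6a3 they were matrix Gla protein, Mgp (0.04), Plod1 (0.04) and the zinc transporter Slc39a13 (0.05), with Col6a1 in rank 35 and Col6a2 in rank 43.

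The fibril-associated members had other neighbours. Those of Col14a1 were the adenylyl cyclase Adcy3 (0.04), the metalloproteinase inhibitor Timp2 (0.06) and the proteoglycan biglycan, Bgn (0.07). Their log2 changes were 0.73, 0.84 and 0.69, and changes near that of Col14a1 follow from the choice by profile. Those of Col16a1 were the serine protease Htra1 (0.06), Zfp185 (0.06) and Pamr1 (0.09), and Col6a1 stood in rank 11. Those of Col12a1 were the mitochondrial carrier Slc25a36 (0.07), the disulfide isomerase Pdia5 (0.07) and L3mbtl3 (0.08). For Col12a1, Col6a3 stood in rank 98 and Col14a1 in rank 2622, while for Col14a1, Col12a1 stood in rank 464. The measure also counts a difference in the size of change, which was 0.26 for Col12a1 and 0.77 for Col14a1. With 6 arrays these ranks describe the profiles and no more.

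Genes of the surrounding matrix pathway came from lists chosen by role. Neither of the 2 further collagen VI chains measured passed, also at an unadjusted p under 0.05 (limma): Col6a6 read 306 to 460 on day 1 and 406 to 475 on day 7 (log2 change 0.25; limma adjusted p = 0.405), and Col6a5 was dim, at 10.3 to 18.8 and 15.9 to 21.4. Of 6 further fibril-associated collagens 1 rose, Col9a2 of cartilage collagen IX (2.52-fold; log2 change 1.33, SE 0.26; limma adjusted p = 0.0377), and none fell. Of 11 fibril-forming collagens none passed. At an unadjusted p under 0.05 (limma) 5 of 11 were higher, against 1 of the 6 collagens followed here and 10.6% of all genes. Every day 7 array lay above every day 1 array in 4 of 11 and below in 1, against 1 and 0 of the 6. Above was the case for 14.0% of all genes. The median change was 0.26, against 0.45 for the 6, and both sets were chosen with earlier results known. The smallest adjusted p-values among the fibril-forming collagens were 0.0932 for Col2a1, 0.0964 for Col11a1 and 0.150 for Col11a2 (limma).

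Of 9 measured receptors of collagens, 1 rose and 1 fell, with a median change of -0.06, and the fall was called in only 6 of 15 alternatives. The 2 are a related pair of anthrax toxin receptors that bind collagen VI. Antxr1 read 61.2, 64.5 and 45.1 on day 1 and 101, 115 and 98.9 on day 7 (a log2 change of 0.89, SE 0.15; limma adjusted p = 0.0301). Antxr2, which takes up collagen VI for breakdown, read 181, 175 and 168 on day 1 and 111, 129 and 107 on day 7 (a log2 change of -0.59, SE 0.11; limma adjusted p = 0.0373). Neither gene's ages overlapped on these probe sets, but 2 dimmer probe sets of Antxr2 had changes of -0.25 and 0.15, and its call was lost with the mean of its probe sets (limma adjusted p = 0.265) and after quantile normalization (0.0541).

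Of 13 measured genes listed as binding partners in the collagen matrix, 2 rose and none fell, with a median change of 0.18. Decorin, Dcn, a small proteoglycan that binds collagen VI and XIV, read 3531, 4113 and 3136 on day 1 and 6741, 6117 and 5753 on day 7 (a log2 change of 0.79, SE 0.13; limma adjusted p = 0.0277), a size close to that of Col14a1 with a smaller spread. Cartilage oligomeric matrix protein, Comp, which binds collagen fibrils and fibril-associated collagens, rose 4.84-fold (limma adjusted p = 0.0285). Of 22 genes of collagen folding, modification and cross-linking 1 rose, the prolyl hydroxylase subunit P4ha1 (1.81-fold; limma adjusted p = 0.0336), and none fell, with 19 of 22 changes above 0 and a median of 0.31. The calls of Col9a2, Antxr1, Antxr2, Dcn and P4ha1 were each kept in 1 of the 6 fits without 1 array and that of Comp in 2. None of these calls was kept without day 7 replicate 1 (limma adjusted p from 0.117 to 0.140). Over all genes that fit called only 4 as higher and 0 as lower.

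**Figure D4:**
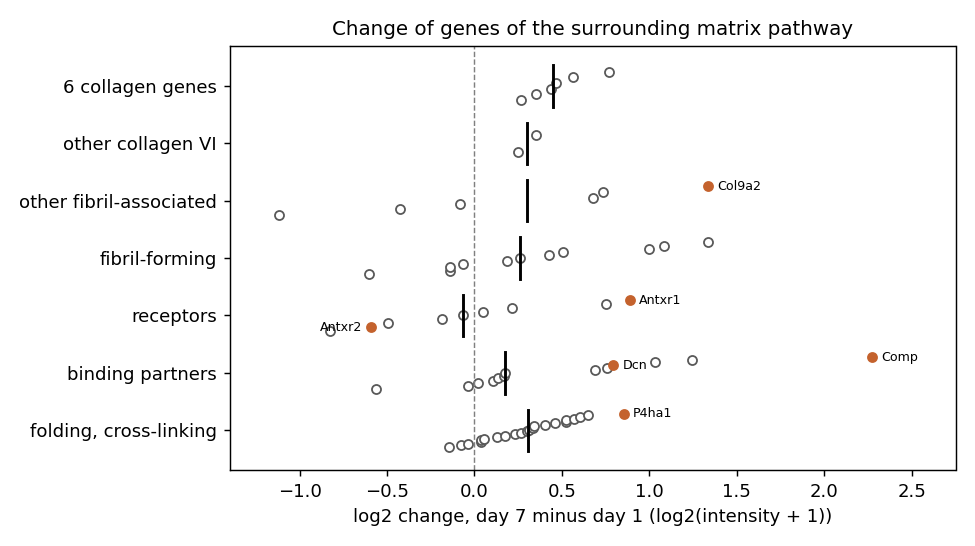
Log2 change from day 1 to day 7 of each measured gene by list (points; filled and named where limma's adjusted p was under 0.05), with the median of each list as a vertical bar. The 6 collagens lie between 0.26 and 0.77 with no filled point, and the receptors hold Antxr1 and Antxr2 on opposite sides of 0.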

How the data were processed

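RNA of pooled Achilles tendons was measured at 2 ages with 3 arrays each. The authors' deposited table gives each probe set a linear intensity on every array. Per the submitters' processing notes MAS5 and RMA were used, without a role or version, and how the background was corrected and the arrays scaled is not given in the sources used here. A remaining difference of scale between ages could thus move any log2 change.

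Values were taken as log2(intensity + 1) without further normalization. Of 31099 probe sets 57 controls were left out. A gene was represented by its brightest probe set among those with 1 symbol. Day 7 was compared with day 1 by lmFit and eBayes of limma 3.58.1 under R 4.3.3 (two-sided), and p-values were adjusted by Benjamini and Hochberg's method across 31042 probe sets. The fit, tested on simulated intensities of 14217 genes, recovered 95.0% of 2-fold changes in the day 7 against day 1 comparison. That share does not carry over to each gene of the real arrays. At 2.52-fold, Col9a2 passed (limma adjusted p = 0.0377) and Col2a1 did not (0.0932). For arrays the number of arrays limits the precision.

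The members and lists were chosen with earlier results of these data known. Named were all 6 members, the 3 genes nearest in profile to each, and of each pathway list every called gene or up to 3 with the smallest adjusted p. Alternatives covered normalization, pseudocount, filter, probe set rule, variance model, array weights, replicate block and arrays left out. Promoter sequences came from RefSeq.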

Additional observations from a re-analysis of the deposited data

How the results depend on the processing

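All 6 collagens kept a log2 change above 0 in each of 15 alternatives. Of these 90 values 86 kept their side of the threshold, and 4, all of Col14a1, came to pass: 0.77 with an intensity trend and robust variances, 0.82 with array weights, 0.98 without day 1 replicate 2 and 1.02 without both arrays numbered 2 (limma adjusted p from 0.0356 to 0.0491). The count of members called higher was thus 1 in these 4 fits and 0 in the other 11 and in the fit of all arrays. Without 1 array it ran from 0 to 1. Without 1 array the changes ran from 0.20 to 0.67 for Col6a1, 0.27 to 0.68 for Col6a2, 0.18 to 0.52 for Col6a3, 0.15 to 0.40 for Col12a1, 0.58 to 0.98 for Col14a1 and 0.22 to 0.86 for Col16a1.

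Over all genes, 274 were higher and 448 lower. The counts were 182 higher with a pseudocount of 16, 538 and 897 with array weights, and from 4 to 271 higher and 0 to 382 lower without 1 array. The cause was not tested. The labels do not state that same-numbered arrays of the ages share more than a number. The correlations of their deviations were 0.13, -0.27 and -0.09. The fit with the replicate block called 25 higher and 8 lower genes and no member, and not every array correlated best with its own number. For the 6 pathway genes called, alternatives were added after seeing the data, and the block ended each call (limma adjusted p from 0.0540 to 0.113). A pseudocount of 16 ended those of Col9a2 (0.0753), Comp (0.0617) and P4ha1 (0.0520). Signal limits the dimmest probe set of Col12a1, not far above the negative control. The dim one of Col6a3, at 11.9 to 28.3, read on both sides of the median intensity of the arrays.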
